A study of Mus musculus with 4 samples.

Results

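The histone probes of a NanoString cancer pathway panel were taken as all endogenous (gene) probes whose name begins with Hist, H2af or H3f, which gave 5 of 750 probes. There were 3 replication-dependent histone H3 genes, Hist1h3b, Hist2h3b and Hist2h3c2, and 2 other histone genes, H3f3a and H2afx. Measured were CD45- live cells sorted from B16-OVA tumors, a transplanted mouse melanoma line that carries ovalbumin, grown under the skin of C57BL/6 mice. The hosts were Prdm1 fl/fl mice with a Foxp3 YFP-Cre allele (2 KO samples) or mice with the Foxp3 YFP-Cre allele alone (2 WT samples), and all had received NP-OVA in adjuvant at day 0 and day 7. Tumors measured up to 1.5 cm3, and the age of the hosts is not given in the labels. Both groups carry the Foxp3-driven Cre, which is active in the regulatory T (Treg) cells of the host. Prdm1, the gene for the transcription factor Blimp1, is therefore deleted in host Treg cells of KO mice and not in the transplanted tumor cells. Its probe gave 9 and 6 counts in KO samples and 9 and 9 in WT samples, all below background, and checks no label.

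Histone H3 is a core protein of the nucleosome, the spool on which DNA is wound. The replication-dependent H3 genes lie in clusters with genes of the other core histones and are transcribed mainly in S phase, when new DNA is packed into chromatin. Their messenger RNAs lack introns and end in a stem-loop in place of a poly(A) tail, and they are degraded when replication stops. In the mouse all 3 genes with a probe, Hist1h3b, Hist2h3b and Hist2h3c2, encode the same protein, H3.2. H3f3a encodes the variant H3.3, which is made in and outside S phase and is placed in chromatin without replication. H2afx encodes H2A.X, a variant of H2A that is phosphorylated around DNA breaks. The nCounter assay hybridizes 1 barcoded probe pair per gene to total RNA and counts single molecules without poly(A) selection or amplification.

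The current names are H3c2 for Hist1h3b, H3c13 for Hist2h3b, H3c15 for Hist2h3c2 and H2ax for H2afx. RefSeq (GRCm38.p6) lists 12 genes of the H3c series, 9 on chromosome 13 and 3 on chromosome 3, and only these 3 have a probe on the panel. Coding sequences of the H3c genes are nearly identical, so that a probe may also count copies other than the one it is named for. The probe of Hist1h3b lies at base 121 of its transcript and that of Hist2h3b at base 297, where the annotated genes are 496 and 502 bases long. Both positions refer to version 1 of the transcript records, while the RefSeq table holds version 3 for Hist1h3b and version 2 for Hist2h3b. The probe of Hist2h3c2 is placed at base 825 of version 3 of its transcript record, while version 4 of that record in the RefSeq table spans 649 bases, so its target may lie past the end of the current gene model. Promoters were found in the RefSeq tables for 4 of the 5 genes, all but H2afx. The 150 bases before the annotated start are shown for these genes. They set the H3 genes with high counts beside Hist2h3c2, whose probe gave few counts, and the H3.3 gene. Capitals mark 3 motifs on either strand, namely the letters CCAAT, the TATA box letters TATAAA, and the GC box letters GGGCGG. Read from the other strand, the first appears as ATTGG and the last of them as CCGCCC.
Hist2h3b promoter, GRCm38.p6 chr3:96268504-96268653, plus strand: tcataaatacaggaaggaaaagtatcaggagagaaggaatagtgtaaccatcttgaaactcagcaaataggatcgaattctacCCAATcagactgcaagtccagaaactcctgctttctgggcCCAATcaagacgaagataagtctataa
Hist1h3b promoter, GRCm38.p6 chr13:23752195-23752344, plus strand: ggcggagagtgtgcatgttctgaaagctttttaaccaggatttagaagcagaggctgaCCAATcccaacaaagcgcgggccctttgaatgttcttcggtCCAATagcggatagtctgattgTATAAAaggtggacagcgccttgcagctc
Hist2h3c2 promoter, GRCm38.p6 chr3:96239128-96239277, minus strand: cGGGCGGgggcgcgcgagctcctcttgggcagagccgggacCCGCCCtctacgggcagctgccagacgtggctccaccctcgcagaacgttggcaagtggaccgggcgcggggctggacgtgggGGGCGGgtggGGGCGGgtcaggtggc
H3f3a promoter, GRCm38.p6 chr1:180813606-180813755, minus strand: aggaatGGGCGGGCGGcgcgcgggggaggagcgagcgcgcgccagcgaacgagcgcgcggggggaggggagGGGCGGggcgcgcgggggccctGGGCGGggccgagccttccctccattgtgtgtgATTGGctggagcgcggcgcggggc

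The promoters of both abundant H3 genes held 2 copies of CCAAT, the letters bound by the factor NF-Y, at 67 and 27 bases before the start in Hist2h3b and at 92 and 51 bases before it in Hist1h3b. That of Hist1h3b also held the letters TATAAA 29 bases before the start. Windows with at least 2 copies of CCAAT made up 6.02% of 32851 RefSeq promoter windows of the same length, and 1.92% held a TATA box as well as a CCAAT. The window of Hist2h3c2 held none of CCAAT, no match to TATAAA and 4 copies of GGGCGG, a match to the GC box bound by Sp1. Outside the window, a CCAAT lay 14 bases past the start of Hist2h3c2. The window of H3f3a held 1 CCAAT and 4 copies of GGGCGG, 2 of which share letters. Single motifs were common, with CCAAT in 24.5%, TATAAA in 7.57% and GGGCGG in 28.6% of all windows. GC content was 40.0% in Hist2h3b and 49.3% in Hist1h3b, against 76.7% in Hist2h3c2 and 80.7% in H3f3a, with a median of 54.0% over all windows. These matches describe letters only, and binding was not measured. A relation of the motifs to the counts was not tested, and the few counts of Hist2h3c2 may reflect its probe position.

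The 750 gene probes of a sample held 626056 to 692284 counts in total, and 446 of them, all 5 histone probes included, exceeded background in 2 or more samples. Background was the mean plus 2 SD of the 8 negative control probes of the same sample, 17.5 to 21.9 counts. Scaled counts are counts corrected for the level of the 20 housekeeping probes in each sample (factors of 0.935 to 1.06). The panel holds 5 of 13 melanocyte lineage genes chosen as markers, of which Pax3, Kit, Met and Erbb3 lay above background and Lef1 did not in any sample, so the tumor cell label was checked only in part. The summed scaled counts of these melanocyte genes were 3471 and 4186 in KO samples, against 3590 and 3885 in WT samples. Of 15 leukocyte genes on the panel 10 were below background in every sample, and the summed level of all 15 was 296 to 310 in KO and 348 to 386 in WT samples. Fibroblast and pericyte genes summed to 1118 to 1277 in KO and 877 to 1616 in WT samples. Most of this sum was Fn1, at 985 (KO 1), 962 (KO 2), 610 (WT 1) and 1139 (WT 2). Of the 5 tested genes of this list, KO samples were higher for 1 and lower for 4 (median log2 fold change -0.86). Beside this, 298 of all 446 tested genes were lower. Col1a1, Col1a2 and Col3a1 were lowest in KO 2, with Col3a1 at 88.7 (KO 1), 16.2 (KO 2), 68.0 (WT 1) and 162 (WT 2). Endothelial genes summed to 256 to 428 in KO and 375 to 419 in WT samples, with the receptors Kdr and Flt1 below background in all 4. This sum was nearly all Angpt2, at 409 (KO 1), 248 (KO 2), 360 (WT 1) and 403 (WT 2). Keratinocyte genes summed to 712 to 926 in KO and 832 to 873 in WT samples. Nearly all of it was Itga6, at 891 (KO 1), 681 (KO 2), 844 (WT 1) and 801 (WT 2). The part of these cells in the histone values was not tested, and a change in the share of a cell type cannot be told apart from a change of RNA per cell in sorted bulk samples.

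Of the 3 replication-dependent H3 genes, Hist2h3b and Hist1h3b were among the most counted genes of the panel in every sample, and Hist2h3c2 was close to background. Hist2h3b had 132430 and 109117 counts in KO samples, against 136050 and 102703 in WT samples, and was the highest of the 750 gene probes in all 4. Hist1h3b had 70853 and 58190 counts in KO samples, against 73525 and 55479 in WT samples. It had rank 2 in KO 1 and WT 1 and rank 3 in KO 2 and WT 2, where the ubiquitin gene Ubb stood above it. Both genes together took 32.2% (95% Wilson interval 32.1 to 32.3) and 24.7% (24.6 to 24.8) of the endogenous counts in KO samples, against 30.3% (30.2 to 30.4) and 25.3% (25.2 to 25.4) in WT samples. These intervals cover counting error only. Each group thus held 1 sample with about 30% or more and 1 with about 25%, and the groups overlapped. Probes differ in how well they capture their target, so shares are shares of counts and not of molecules.

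**Figure D1:**
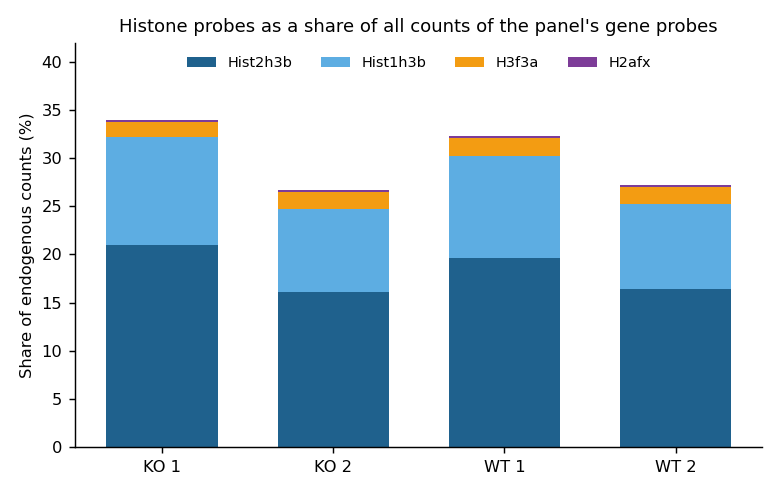
Stacked bars give the share of endogenous counts (%) taken by the probes of Hist2h3b, Hist1h3b, H3f3a and H2afx in KO 1, KO 2, WT 1 and WT 2, and Hist2h3c2 is too low to be drawn. All 5 histone probes reached 34.0% and 26.7% in KO samples, against 32.3% and 27.2% in WT samples, so sample 1 was above sample 2 in both genotypes.

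After housekeeping scaling neither abundant H3 gene differed between genotypes beyond the spread of the samples. Hist2h3b was at 141591 and 103854 scaled counts in KO samples, against 128515 and 106844 in WT samples. The KO samples were the highest and the lowest of the 4, with both WT samples between them. The KO mean was 122723 ± 26684 and the WT mean 117679 ± 15324 (mean ± SD, n = 2 each), which gives a log2 fold change of 0.06 (SE 0.24, 95% interval -0.53 to 0.65, adjusted p = 0.946 by edgeR's quasi-likelihood test). Hist1h3b was at 75754 and 55383 scaled counts in KO samples, against 69453 and 57716 in WT samples. Its samples fell in the same order as those of Hist2h3b. The KO mean was 65569 ± 14405 and the WT mean 63584 ± 8299 (mean ± SD, n = 2 each), which gives a log2 fold change of 0.04 (SE 0.22, 95% interval -0.49 to 0.58, adjusted p = 0.946). As folds, the intervals ran from 0.694 to 1.57 for Hist2h3b and from 0.711 to 1.50 for Hist1h3b, so with 2 samples per group a change inside these bounds could not be told from none. The direction of both turned when KO 1 or WT 2 was left out, with log2 fold changes of -0.18 without KO 1 and -0.07 without WT 2 for Hist2h3b, and -0.20 and -0.08 for Hist1h3b.

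**Figure D2:**
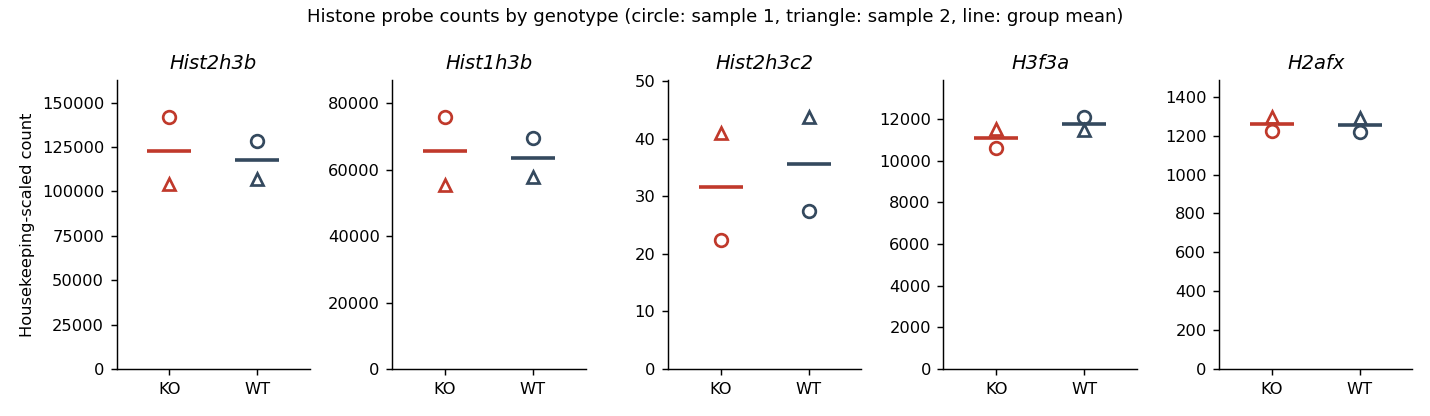
Each panel gives the housekeeping-scaled count of 1 histone probe on a linear axis from 0, with KO samples left of WT samples, circles for sample 1, triangles for sample 2 and a line for the group mean. KO and WT points overlap for every gene, and the circles lie above the triangles in both genotypes for Hist2h3b and Hist1h3b and below them for Hist2h3c2 and H2afx.

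The larger difference in both genes was between the samples of a genotype. Hist2h3b was 1.36-fold higher in KO 1 than in KO 2 and 1.20-fold higher in WT 1 than in WT 2. For Hist1h3b the same folds were 1.37 and 1.20. The labels do not say what the sample numbers mark. Over all 4 samples the range of Hist1h3b was 0.45 and that of Hist2h3b 0.45 on the log2 scale, against a median range of 0.27 over the 85 tested genes with a mean of at least 1000 counts. Of those 85, 21 ranged wider than Hist1h3b. Counting error is small at such counts, and the sources give no cause for the spread between samples.

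Both abundant H3 genes kept almost the same ratio in every sample, although they lie on different chromosomes. Hist2h3b over Hist1h3b was 1.87 and 1.88 in KO samples, against 1.85 and 1.85 in WT samples, as a ratio of raw counts that no scaling can move. On the log2 scale both KO ratios lay above both WT ratios, by 0.017 between the means, where counting error alone gives an SE of 0.0066 to 0.0076 per sample. The exact two-sided permutation test gave p = 0.333, the smallest that 2 against 2 samples allow. With the shared coding sequence of H3 genes, how far each probe counts the other's transcript was not tested.

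H3f3a, the H3.3 gene, ordered the samples differently from Hist2h3b and Hist1h3b, and KO and WT samples overlapped. It had 9942 and 12119 counts in KO samples, against 12796 and 11036 in WT samples, and ranked 8 or 9 among the 750 gene probes. After scaling it was at 10630 and 11534 in KO samples, against 12087 and 11481 in WT samples. KO 1, the highest sample for Hist2h3b, was the lowest for H3f3a, and KO 2 lay between the WT samples. The KO mean was 11082 ± 640 and the WT mean 11784 ± 429 (mean ± SD, n = 2 each), which gives a log2 fold change of -0.09 (SE 0.12, 95% interval -0.38 to 0.20, adjusted p = 0.807). Scaling to the positive control probes turned the direction, to a log2 fold change of 0.039. H3f3a took 4.66% and 6.75% of the counts of all H3 probes in KO samples, against 5.75% and 6.52% in WT samples. Hist2h3b over H3f3a was 13.3 and 9.0 in KO samples, against 10.6 and 9.31 in WT samples, and the groups overlapped (exact permutation p = 1.0).

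H2afx had the smallest range over the samples among the 5 histone probes, and its KO and WT samples overlapped. It had 1147 and 1360 counts in KO samples, against 1289 and 1243 in WT samples, which gave 1226 and 1294 scaled counts in KO samples and 1218 and 1293 in WT samples. The 4 samples lay within 0.09 on the log2 scale, and 433 of the 446 tested genes (97.1%) ranged wider. Of the 85 tested genes with a mean of at least 1000 counts, 76 (89.4%) did. The KO mean was 1260 ± 48.1 and the WT mean 1255 ± 53.4 (mean ± SD, n = 2 each), which gives a log2 fold change of 0.0059 (SE 0.11, 95% interval -0.25 to 0.26, adjusted p = 0.981). The interval corresponds to folds of 0.839 to 1.20, the narrowest among the 5 histone genes. The sign of so small a difference turned with total-count scaling and without KO 2 or WT 1.

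Hist2h3c2 stood near background, far from the other H3 genes. It had 21 and 43 counts in KO samples, against 29 and 42 in WT samples. The count of KO 1 lay just under its background limit, at 0.959 times that limit, while the others were at 2.16 times in KO 2 and at 1.66 and 2.35 times in WT samples. Exact 95% Poisson intervals were 13 to 32.1 and 31.1 to 57.9 in KO samples, against 19.4 to 41.6 and 30.3 to 56.8 in WT samples. Scaled counts were 22.5 and 40.9 in KO samples, against 27.4 and 43.7 in WT samples, which gives a log2 fold change of -0.15 (SE 0.41, 95% interval -1.14 to 0.84, adjusted p = 0.925). Sample 1 was below sample 2 in both genotypes, the reverse of the order of Hist2h3b and Hist1h3b. As folds of KO over WT samples, the interval ran from 0.453 to 1.80. The level of the gene is uncertain because of the probe position given above. The direction turned without KO 1, to with a log2 fold change of 0.21, and without WT 2, to 0.22.

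No histone probe passed a threshold for a genotype difference. With edgeR 0 of the 5 passed an adjusted p of 0.05, against 0% of all 446 tested genes, and 0 of 5 had an unadjusted p under 0.05, against 7.4% of all. DESeq2 and limma-voom called 0 of the 5, against 3 and 0 of all 446 tested genes. KO and WT samples overlapped for all 5, while among all tested genes the KO pair lay wholly above the WT pair in 11.2% and wholly below it in 31.4%. The median log2 fold change over all tested genes was -0.08 (148 higher and 298 lower in KO samples), and it moved to 0.05 with scaling to positive controls, whose geometric mean was 790 counts in KO 1 and 966 in KO 2, against 974 and 974 in WT samples. Of 9 ratios between histone probes within a sample, the groups overlapped in all but Hist2h3b over Hist1h3b, with exact permutation p-values of 0.333 to 1.0. Hist1h3b over H2afx was 61.8 and 42.8 in KO samples, against 57.0 and 44.6 in WT samples, and Hist2h3b over H2afx was 115 and 80.2 in KO samples, against 106 and 82.6 in WT samples.

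**Figure D3:**
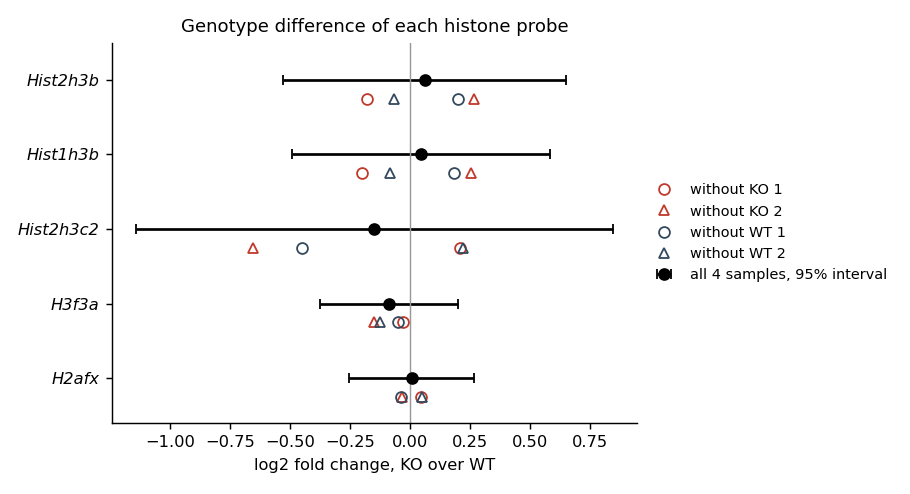
Black points and bars give the log2 fold change, KO over WT, of each histone probe with its 95% interval from the fit over all 4 samples, and open symbols below them give the value with 1 sample left out. All 5 intervals include 0, and for Hist2h3b, Hist1h3b, Hist2h3c2 and H2afx the values with a sample left out fall on both sides of 0.

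Among all other tested genes, Ccna2 had the pattern nearest to both abundant H3 genes. Likeness was the root mean square distance between log2 scaled counts centred on each gene's mean over the 4 samples. Hist1h3b and Hist2h3b were each other's nearest gene, at 0.0084. Ccna2, which encodes cyclin A2, a partner of Cdk2 in S phase, followed at 0.037 from Hist1h3b and 0.031 from Hist2h3b. It was at 2302 and 1670 scaled counts in KO samples, against 1974 and 1712 in WT samples, high in KO 1 and WT 1 as the H3 genes were. Next came the chromatin remodeling gene Pbrm1 for Hist1h3b, at 0.056, and the H3 lysine methyltransferase gene Suv39h2 for Hist2h3b, at 0.054. For H2afx the nearest were Fbxw11, Aph1b and Map2k4 (0.016 to 0.020), and for H3f3a Shc1, Sp1 and Endog (0.019 to 0.024). For Hist2h3c2 they were Axin2, Igfbp3 and Il3ra, at 0.15 to 0.17. These distances describe 4 samples out of 446 genes and carry no test.

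**Figure D4:**
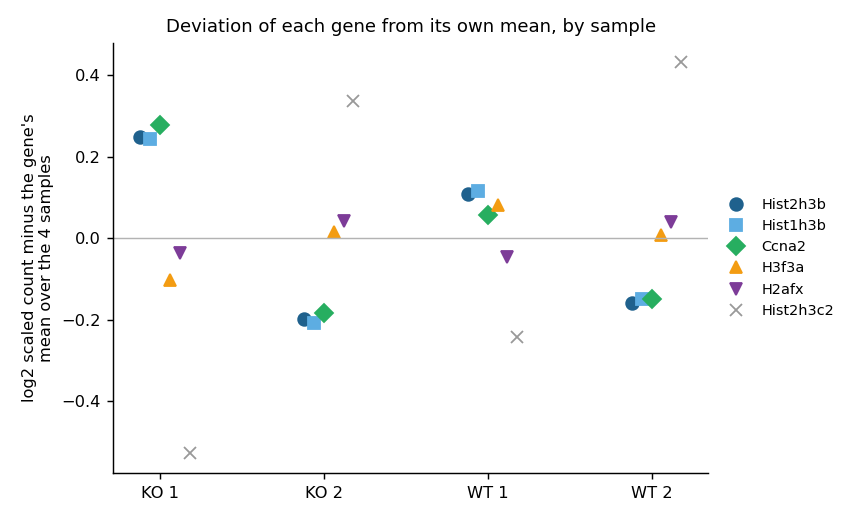
Points give the log2 scaled count of each histone probe and of Ccna2 minus that gene's mean over the 4 samples, for KO 1, KO 2, WT 1 and WT 2, with symbols shifted sideways for legibility. Hist2h3b, Hist1h3b and Ccna2 lie above 0 in KO 1 and WT 1 and below 0 in KO 2 and WT 2, and H2afx stays within 0.05 of 0.

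The panel also held genes of the cell cycle phases in which histones are made and used. Of 33 S phase and replication genes listed, 21 were on the panel and tested, of which KO samples were higher for 6 and lower for 15, and their median log2 fold change was -0.03 beside -0.08 for all tested genes. Of these 21, 0 passed an adjusted p and 0 an unadjusted p under 0.05 by edgeR, against 0% and 7.4% of all tested genes. The sign of this median was turned by other scalings. Each S phase gene was also centred on its own mean on the log2 scale, and the median over the list was taken within each sample. This median was 0.10 in KO 1 and -0.15 in KO 2, against 0.03 and 0.05 in WT samples. KO 1 and KO 2 thus differed in the direction of the H3 genes, and WT 1 and WT 2 did not. This was not particular to S phase genes. The same median was 0.12 in KO 1 and -0.29 in KO 2 for the damage signaling genes described below. It was 0.015 and -0.16 for the genes of enzymes that add or remove H3 marks. For all tested genes it was -0.02 in KO 1 and -0.06 in KO 2, against 0.03 and 0.04 in WT samples. Cdk2, the kinase that drives S phase entry, averaged 3013 ± 109 scaled counts in KO samples and 3535 ± 63.2 in WT samples (SD, n = 2 each), with an adjusted p of 0.569 by edgeR. Rfc4, a subunit of the clamp loader, averaged 447 ± 50.2 in KO and 386 ± 15.7 in WT samples, and Cdc7, a kinase that fires replication origins, 72.8 ± 19.5 in KO and 98.8 ± 7.44 in WT samples.

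Of 6 tested G2 and M phase genes, KO samples were higher for 4 and lower for 2 (median log2 fold change 0.10), beside 148 higher and 298 lower of all tested genes. With TMM 5 of the 6 were higher (median 0.18), beside 225 of all 446 tested genes. With positive control scaling all 6 were higher (median 0.23), beside 271 of all 446. Wee1, the kinase that holds Cdk1 inactive, was the only one of the 6 at an unadjusted p under 0.05, which 7.4% of all tested genes reached, at 198 and 264 scaled counts in KO samples, against 152 and 153 in WT samples, and its adjusted p was 0.538 by edgeR. Its KO samples ran opposite to the H3 genes, higher in KO 2 than in KO 1. Cdc25c, the phosphatase that opposes Wee1, averaged 300 ± 8.13 in KO samples and 267 ± 18.2 in WT samples, and Ccnb1, which encodes cyclin B1, 26.3 ± 3.59 in KO samples and 22.1 ± 8.51 in WT samples (SD, n = 2 each).

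Around H2afx, the panel tested 9 genes of damage signaling at DNA breaks, and KO samples were higher for 1 and lower for 8 (median log2 fold change -0.15), beside 298 lower of all 446 tested genes and their median of -0.08. The list's median was -0.07 with TMM, where that of all tested genes was 0.0011. With positive control scaling 4 were higher and 5 lower (median -0.014), beside 271 higher and 175 lower of all tested genes (median 0.05). Of the 9, 0 passed an adjusted or an unadjusted p under 0.05 by edgeR, against 0% and 7.4% of all tested genes. Mdc1, which binds phosphorylated H2A.X, was at 309 and 197 scaled counts in KO samples, against 344 and 314 in WT samples. KO 2 was the low sample, while H2afx itself was not low there. Rad50, of the complex that senses breaks, was at 559 and 428 in KO samples, against 540 and 574 in WT samples. Atm, the kinase that phosphorylates H2A.X, was at 364 and 304 in KO samples, against 363 and 378 in WT samples. For both, KO 2 was again the lowest sample.

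Of 13 tested genes for enzymes that add or remove H3 marks, KO samples were higher for 2 and lower for 11 (median log2 fold change -0.15). Beside this, 298 of all 446 tested genes were lower, with a median of -0.08. Of the 13, 0 passed an adjusted p by edgeR, against 0% of all tested genes. The list's median was -0.07 with TMM, where that of all tested genes was 0.0011. With positive control scaling 5 were higher and 8 lower (median -0.021), beside 271 higher and 175 lower of all tested genes (median 0.05). Kmt2d, an H3 lysine 4 methyltransferase, was the only one of the 13 at an unadjusted p under 0.05, against 7.4% of all tested genes. It was at 594 and 522 scaled counts in KO samples, against 698 and 677 in WT samples, with an adjusted p of 0.569 by edgeR. Both KO samples lay below both WT samples, as they did for 31.4% of all tested genes. Setd2, which methylates H3 lysine 36, was at 494 and 456 in KO samples, against 524 and 569 in WT samples. Ep300, an H3 acetyltransferase, was at 924 and 814 in KO samples, against 1001 and 984 in WT samples.

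Of 7 genes listed for chaperones that carry H3, Daxx and Atrx, which together place H3.3 in chromatin, were on the panel. Daxx was at 96.2 and 105 scaled counts in KO samples, against 102 and 183 in WT samples. WT 2 alone was high, and the groups overlapped. Atrx was at 2815 and 2623 in KO samples, against 3055 and 2882 in WT samples, which gives a log2 fold change of -0.13 (SE 0.10, adjusted p = 0.687 by edgeR). Both KO samples of Atrx lay below both WT samples, as they did for 31.4% of all tested genes. Nasp, a chaperone of H3 and H4 outside that list, was at 2000.4 and 1683 scaled counts in KO samples, against 1972 and 1865 in WT samples, and its log2 fold change was -0.06 (adjusted p = 0.890 by edgeR).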

How the data were processed

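For each sample the authors hybridized 100 ng of total RNA from sorted CD45- cells to NanoString's mouse PanCancer Pathways probes. The authors deposited raw counts per probe for 4 samples, and a table of signal, which is the count times a sample's factor (0.877 to 0.986), with a floor of 17. Counts were the main values and the signal an alternative. The files name no genome build, and promoters were read from RefSeq tables of GRCm38.p6.

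Groups came from the labels, which do not state that each sample is a separate animal, so p-values measure the spread between these samples. In edgeR's fit the spread of each gene is also drawn toward that of all tested genes. Scaling used the geometric mean of 20 housekeeping probes. Tested were the 446 of 750 endogenous probes that in at least 2 samples exceeded the negative controls' mean by 2 SD, with edgeR 4.0.16 in R 4.3.3 (quasi-likelihood, genotype only, two-sided, Benjamini-Hochberg over all 446, threshold 0.05). Ratios were tested over samples with exact two-sided permutation tests (Python 3.11.15, scipy 1.17.1). The fit was also run on counts simulated from the gene means and spread of these data. The outcome is not reported here, so no error rate is drawn from it.

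Named were all histone probes, the 3 genes nearest in pattern to each, and the 3 genes of lowest p from each list (both genes of the chaperone list). The members and lists were chosen with earlier results of these data known. Ubb and Nasp were named after their values were seen. Alternatives were other scalings, DESeq2 1.42.0, limma-voom (limma 3.58.1), an unequal-variance test of log2 values, other filters, background subtraction, the deposited signal (log2, pseudocount 1), the replicate number as a block and leaving out each sample. Scaling to the total without the 5 histone probes was chosen after seeing the data.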

Additional observations from a re-analysis of the deposited data

How the results depend on the processing

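The histone genes were read in 17 fits or tests with 1 choice changed (16 for Hist2h3c2), which gave 84 values over the 5 genes. Where all 4 samples were kept, their adjusted p-values by edgeR, DESeq2, limma or the unequal-variance test were 0.774 to 0.994. The lowest unadjusted p was 0.348, by the unequal-variance test for H3f3a. In 74 of the 84 values the direction was kept. It was turned for H2afx by total-count scaling (-0.0066) and for H3f3a by positive control scaling (0.039), and otherwise by leaving out a sample. Leaving out each sample in turn gave log2 fold changes of -0.037 to 0.050 for H2afx, -0.20 to 0.25 for Hist1h3b, -0.18 to 0.27 for Hist2h3b, -0.65 to 0.22 for Hist2h3c2 and -0.15 (without KO 2) to -0.03 (without KO 1) for H3f3a. For the log2 ratios within a sample, KO minus WT, it gave -0.24 to 0.29 for Hist1h3b over H2afx, -0.22 to 0.31 for Hist2h3b over H2afx and -0.59 to 0.20 for Hist2h3c2 over H2afx. It gave -0.14 to 0.42 for Hist2h3b over H3f3a, -0.16 to 0.41 for Hist1h3b over H3f3a and -0.48 to 0.27 for Hist2h3c2 over H3f3a. It gave -0.42 to 0.90 for Hist2h3b over Hist2h3c2 and -0.44 to 0.88 for Hist1h3b over Hist2h3c2. Where a group is left with 1 sample, its spread is taken from the other group, and the cause of the turns was not tested. The number of tested genes past an adjusted p of 0.05, 0 with edgeR, was 3 with DESeq2, 1 with the replicate block and 0 to 20 with a sample left out (20 without KO 1), and none of these calls was a histone gene. Samples of the same number deviated together at a correlation of 0.039 across 446 genes, so the numbers were not taken to pair the samples. With the replicate block the SE of Hist1h3b was 0.11 and that of Hist2h3b 0.12, and 48 genes, against 33 without it, had an unadjusted p under 0.05. The median of the S phase list was 0.047 with TMM, 0.044 with DESeq2 size factors and 0.11 with positive control scaling. In the same settings the medians of all tested genes were 0.0011, -0.0037 and 0.052. Hist2h3c2 could not be fitted with a filter at a mean of 50 counts. Hist2h3c2 had few counts, and its samples also differed, at 0.549-fold for KO 1 over KO 2 and 0.627-fold for WT 1 over WT 2. With 2 samples per group, what sets the width of the intervals of the 5 histone genes was not tested.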
